A study of Sus scrofa with 9 samples.

Results

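Insulin signaling in the vessel wall was followed through 10 genes of the deposited expression table, which lists 21357 genes. The 10 genes are the receptor INSR, the adaptors IRS1 and IRS2, the PI3K regulatory subunit PIK3R1, the kinase AKT2, the transcription factor FOXO1, the glucose transporter SLC2A4, the coactivator PPARGC1A and the inhibitors SOCS3 and PTPN1. They were taken by name. The table gives 9 of them a name, and the row of SOCS3 carries only the identifier ENSSSCG00000036956, which the table describes as suppressor of cytokine signaling 3 and the Ensembl name list pairs with SOCS3. Each of the 10 genes had 1 row.

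The libraries came from the abdominal aorta of Tibetan minipigs, a small pig breed, with 3 pigs in each of 3 groups. NC pigs ate a regular diet for 24 weeks, H8 pigs a high-fat diet for 8 weeks with hypercholesterolemia as their labelled state, and H24 pigs the high-fat diet for 24 weeks with atherosclerosis as theirs. The study's methods describe the NC and H24 pigs as males bought a few months after birth, and the diet as basal feed with added shortening, cholesterol and egg yolk powder. They do not describe the H8 pigs. A group on the regular diet for 8 weeks was not analysed here, so diet and time on study cannot be told apart in H8/NC. Each library is bulk tissue, in which fewer cells of a type and less RNA per cell cannot be told apart.

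When insulin binds its receptor, the receptor phosphorylates the IRS adaptors, which recruit PI3K through its regulatory subunit. The lipid that PI3K makes activates AKT, which brings the transporter GLUT4, encoded by SLC2A4, to the cell surface and keeps FOXO1 out of the nucleus. Vascular smooth muscle and endothelium both carry the receptor, and in the endothelium the same pathway activates nitric oxide synthase. SOCS3 and the phosphatase PTPN1 damp the signal at the receptor and the adaptors.

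Total counts per library ran from 44094263 to 75787978. Pearson's r of log2 CPM across 11239 genes was 0.962 to 0.966 between NC libraries, 0.938 to 0.965 between H8 libraries and 0.832 to 0.942 between H24 libraries, the genes not being independent replicates. H24 replicate 3 stood apart, so the members' fold changes in H24 and the calls of each gene list are given also without it. Its 10 smooth muscle markers summed to 1818 FPKM, against 8614 to 14749 FPKM in the other 8 libraries, and its 10 macrophage markers to 2104 FPKM, against 26.6 to 327 FPKM. ACTA2 and MYH11, which define smooth muscle, were at 545 and 218 FPKM in it and at 1348 to 3317 FPKM in the other libraries. The extraction protocol in the labels mentions an adipose type, whereas the labelled tissue is aorta. The adipocyte gene ADIPOQ was at no more than 14.6 FPKM. All 10 adipocyte markers summed to 72.5 to 223 FPKM, with FABP4, which other cells make too, at 47.9 to 139 FPKM. GAPDH had 142 to 330 FPKM, with a median of 203.

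Across the 3 comparisons the only member called by the thresholds of the study was IRS2. To be called, a gene needed a log2 fold change above 1 or below -1 and a p-value below 0.05 before any adjustment (edgeR's quasi-likelihood test on counts). In H24/NC, 1 of the 9 members tested was called lower and 0 higher, against 1.52% and 9.95% of all 14828 genes tested. In H8/NC, 0 of 9 were called, against 2.27% lower and 5.11% higher among 14336 genes. In H24/H8, 1 of 9 was called lower and 0 higher, against 3.05% and 7.22% of 14788 genes. PPARGC1A lay below the minimum mean of 0.1 FPKM and was not tested.

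No member had an adjusted p-value under 0.05 in edgeR's quasi-likelihood test, nor in DESeq2. Among all genes, those that passed it with the same fold change made up 0% in H24/NC, 0.0279% in H8/NC and 0.0135% in H24/H8, while DESeq2 passed 954, 616 and 650 genes. At an unadjusted p-value under 0.05 there were 2 members in H24/NC (IRS2 and AKT2), 0 in H8/NC and 2 in H24/H8 (IRS2 and PIK3R1). The median log2 fold change of the 9 members was -0.55 in H24/NC, -0.02 in H8/NC and -0.24 in H24/H8, beside 0.01, 0.01 and 0.04 over all genes tested. The 3 comparisons share libraries, so their values are not independent.

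**Figure D1:**
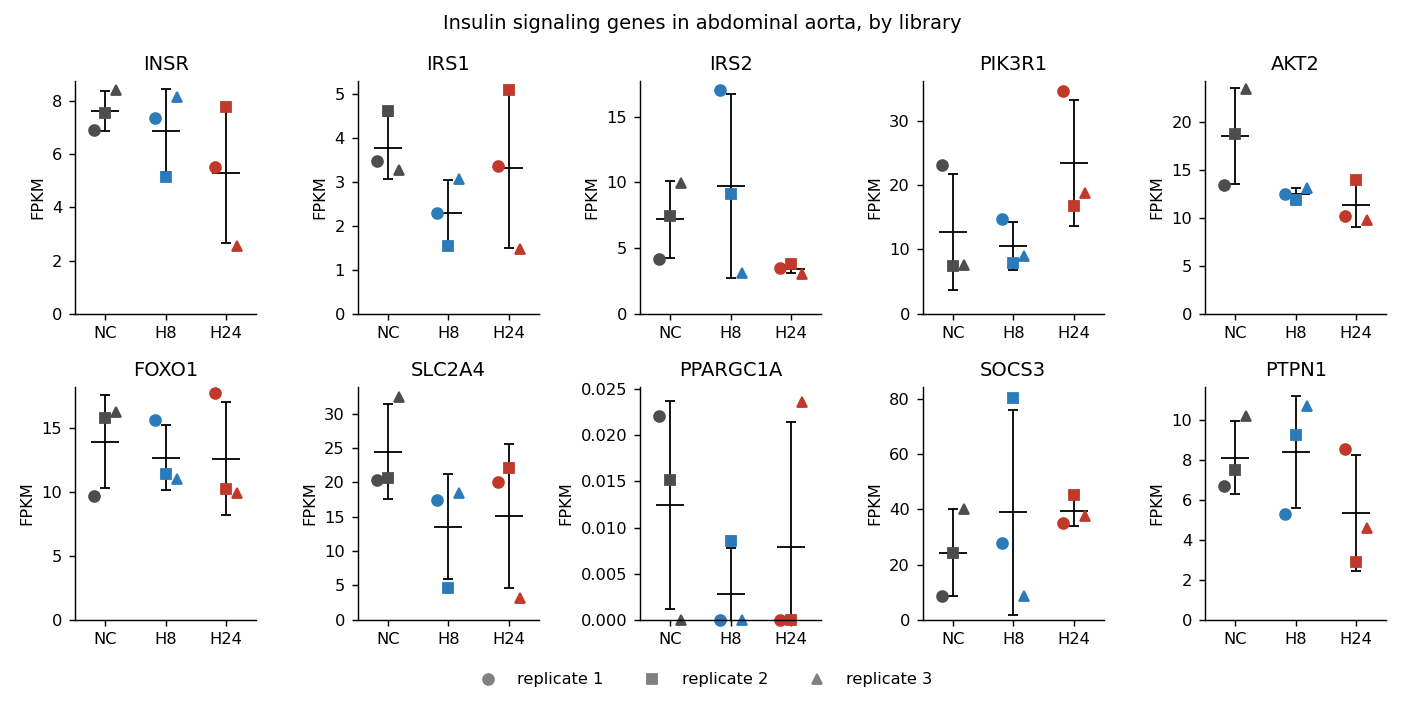
FPKM (vertical axis, linear from 0, with a scale of its own in each panel) of the 10 genes in the NC, H8 and H24 libraries. Symbols mark replicates 1 to 3, and the bar and whiskers give the mean and SD of 3 pigs, with whiskers below 0 (PPARGC1A) not drawn. IRS2 in H24 sits between 3.03 and 3.77 FPKM, below the 3 NC libraries, and SLC2A4 is lowest in H24 replicate 3 and H8 replicate 2.

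**Figure D2:**
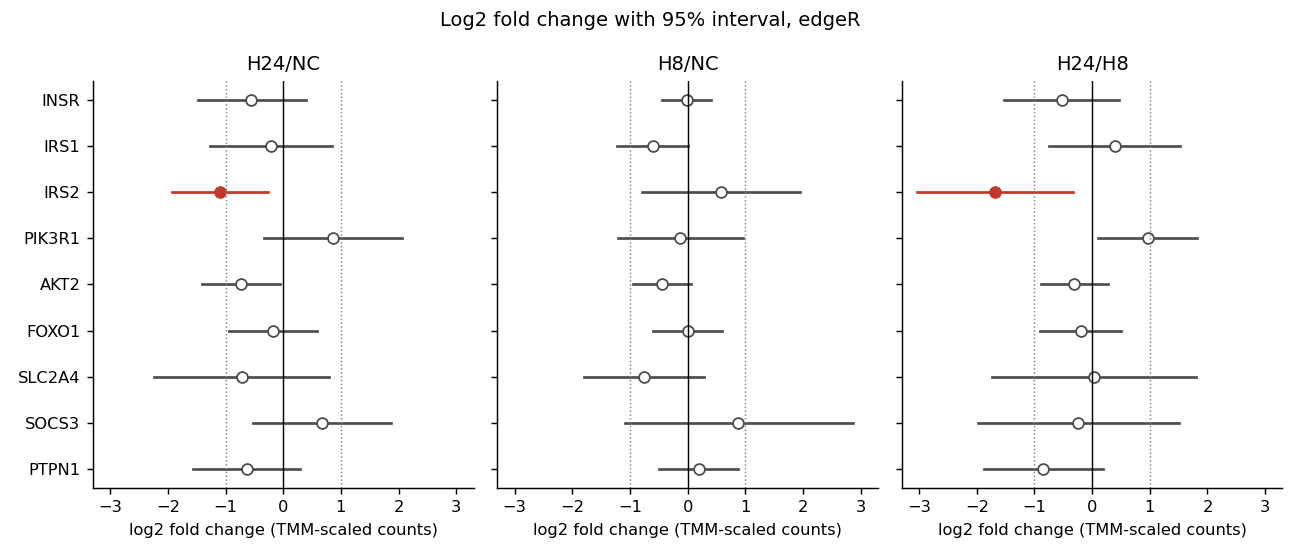
Log2 fold change (horizontal axis) with its 95% interval for the 9 tested members in H24/NC, H8/NC and H24/H8, from edgeR on TMM-scaled counts. Filled red points are called, open points are not, and dotted lines mark a log2 fold change of 1 in size. IRS2 is the filled point in H24/NC (-1.09) and H24/H8 (-1.68).

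In FPKM, which is per length and so allows genes to be compared, SLC2A4 (24.5 ± 6.81, SD, n = 3) and SOCS3 (24.3 ± 15.7) were the highest members in NC. AKT2 (18.6 ± 4.99), FOXO1 (13.9 ± 3.65), PIK3R1 (12.7 ± 8.99), PTPN1 (8.11 ± 1.82), INSR (7.62 ± 0.754), IRS2 (7.18 ± 2.92) and IRS1 (3.77 ± 0.727) followed. The ranges of neighbours in this order overlapped at each step down to IRS1, so the order of adjacent genes is not resolved by 3 pigs. PPARGC1A, at 0.0124 ± 0.0113 FPKM, was the one member whose range lay apart from its neighbour. In H24, SOCS3 (39.2 ± 5.44 FPKM) lay above PIK3R1 (23.5 ± 9.78 FPKM) without overlap, but narrowly, the nearest libraries being at 34.9 and 34.7 FPKM. AKT2 (11.4 ± 2.34 FPKM) lay above PTPN1 (5.36 ± 2.90 FPKM) without overlap, as it also did in NC and H8. In H8, INSR (6.89 ± 1.57 FPKM) lay above IRS1 (2.29 ± 0.759 FPKM) without overlap, as it also did in NC.

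INSR, the insulin receptor, is on chromosome 2 of Sscrofa11.1 (71797125 to 71936215, plus strand). It had 6.91, 7.54 and 8.41 FPKM in NC replicates 1 to 3, 7.37, 5.14 and 8.17 FPKM in H8 and 5.52, 7.79 and 2.55 FPKM in H24. The groups overlapped, and H24 replicate 3 was the lowest of the 9 libraries. The log2 fold change was -0.55 in H24/NC (95% interval -1.48 to 0.39, adjusted p = 0.587, edgeR) and -0.21 without H24 replicate 3. The H24/H8 value was -0.53, and -0.20 without that library. In H8/NC it was -0.02, with the narrowest interval of any member there (-0.44 to 0.40).

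IRS1 and IRS2, the main adaptors that the receptor phosphorylates, are on chromosome 15 (128245383 to 128308352, minus strand) and chromosome 11 (76650837 to 76654613, minus strand). The deposited IRS2 model spans 3777 bases, against 28482 for the RefSeq gene of the same assembly, so its FPKM rests on part of that gene. IRS1 had 3.46, 4.60 and 3.26 FPKM in NC replicates 1 to 3, 2.28, 1.53 and 3.05 FPKM in H8 and 3.35, 5.08 and 1.47 FPKM in H24. Every H8 library lay below every NC library, while H24 spread over both. FPKM values that did not overlap were found for 3 of the 9 members tested in H8/NC, against 22.8% of all genes tested. They were IRS1, AKT2 and SLC2A4, all lower in H8. In TMM-scaled CPM, AKT2 did overlap (105 to 111 in H8, 105 to 184 in NC). The log2 fold change of IRS1 in H8/NC was -0.61 (95% interval -1.23 to 0.01, adjusted p = 0.345, edgeR). In H24/NC it was -0.22, and 0.14 without H24 replicate 3. Its H24/H8 value was 0.39, and 0.74 without that library.

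IRS2 had 4.14, 7.43 and 9.98 FPKM in NC replicates 1 to 3, 17.0, 9.12 and 3.07 FPKM in H8 and 3.51, 3.77 and 3.03 FPKM in H24. The H24 libraries lay close together and below all NC libraries, whereas H8 held both the highest library of the series and a value as low as H24. IRS2 was the 1 member of 9 without overlap in H24/NC, against 20.6% of all genes tested. Its log2 fold change in H24/NC was -1.09 (standard error 0.35, 95% interval -1.92 to -0.26, unadjusted p = 0.0175, adjusted p = 0.257, edgeR), a level 2.12-fold lower. Without NC replicate 2 it was -1.04 and without NC replicate 3 -0.80, with unadjusted p-values of 0.0505 and 0.0720 (edgeR), which end the call. With all 9 libraries in one edgeR fit it was -1.08 (unadjusted p = 0.0794) and with limma on log2(FPKM + 0.1) -0.96, neither called, while leaving out H24 replicate 3 gave -1.01, which was called.

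In H24/H8 the log2 fold change of IRS2 was -1.68 (standard error 0.57, 95% interval -3.03 to -0.34, unadjusted p = 0.0212, adjusted p = 0.341, edgeR), a level 3.21-fold lower. The groups overlapped, since H8 replicate 3 had 3.07 FPKM. Leaving out H8 replicate 1, the highest library, gave -1.08, and leaving out H24 replicate 1 gave -1.67, neither of them called (unadjusted p = 0.0860 and 0.0616, edgeR). With limma on log2(FPKM + 0.1) it was -1.17, also not called (unadjusted p = 0.0747). Without H24 replicate 3 it was -1.59, which was called. In H8/NC the value was 0.58 (95% interval -0.80 to 1.95, adjusted p = 0.691, edgeR). It was 1.01 without H8 replicate 3 and -0.04 without H8 replicate 1, so the direction at 8 weeks rests on single pigs.

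The ratio of IRS2 to IRS1 within a library does not depend on how libraries are scaled. It was 1.20, 1.61 and 3.06 in NC replicates 1 to 3, 7.45, 5.95 and 1.01 in H8 and 1.05, 0.742 and 2.06 in H24. H8 replicates 1 and 2 were the highest, and H24 replicate 2 was the only library with more IRS1 than IRS2 per length. The deposited IRS2 model covers only part of the RefSeq gene, so whether a ratio lies above or below 1 may depend on the model. On the log2 scale the mean ratio was 0.86 ± 0.69 in NC, 1.83 ± 1.58 in H8 and 0.23 ± 0.75 in H24 (SD, n = 3). The difference was -0.63 in H24/NC, 0.97 in H8/NC and -1.60 in H24/H8, with p = 0.400, 0.400 and 0.300 in the exact permutation test, two-sided, which cannot go below 0.1 for 3 against 3. Single pigs moved these differences widely. With 1 library left out they ran from -1.04 (without H24 replicate 3) to -0.25 (without NC replicate 3) in H24/NC, from 0.44 (without H8 replicate 1) to 1.88 (without H8 replicate 3) in H8/NC, and from -2.51 (without H8 replicate 3) to -1.07 (without H8 replicate 1) in H24/H8. Without H24 replicate 3 the last was -2.01.

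**Figure D3:**
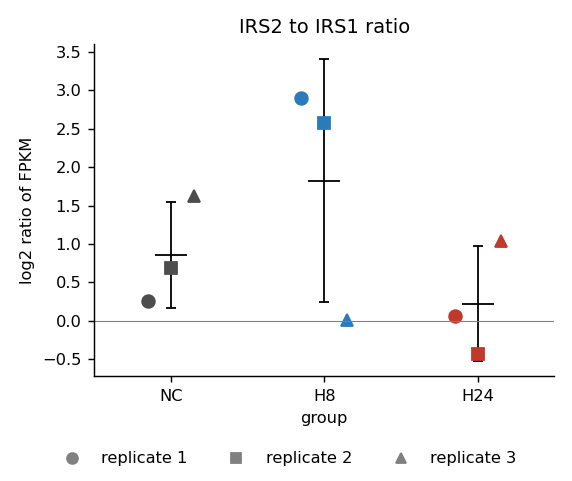
Log2 of the FPKM ratio (vertical axis) of IRS2 to IRS1 within each library of NC, H8 and H24. Symbols mark replicates 1 to 3, and the bar and whiskers give the mean and SD. The ratio is highest in H8 replicates 1 and 2 (2.90 and 2.57) and lies near 0 in H8 replicate 3 (0.01).

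PIK3R1 encodes the regulatory subunit that ties the catalytic subunits of PI3K to phosphorylated IRS proteins, and is on chromosome 16 (46434814 to 46523623, plus strand). It had 23.1, 7.46 and 7.54 FPKM in NC replicates 1 to 3, 14.8, 7.89 and 8.97 FPKM in H8 and 34.7, 16.8 and 18.8 FPKM in H24. All H24 libraries lay above all H8 libraries, and replicate 1 was the highest library in each of the 3 groups. PIK3R1 was the 1 member of 9 without overlap in H24/H8, against 21.8% of all genes tested. There its log2 fold change was 0.97 (standard error 0.36, 95% interval 0.11 to 1.82, unadjusted p = 0.0317, adjusted p = 0.341, edgeR), just inside the threshold of 1. It was called when H24 replicate 2 (1.12), H24 replicate 3 (1.10) or H8 replicate 1 (1.26) was left out. It was also called with library size only (1.17) and with limma on log2(FPKM + 0.1) and log2(FPKM + 1) (1.12 and 1.06), so that under limma PIK3R1 and not IRS2 was the member called in H24/H8. In H24/NC the value was 0.86 (95% interval -0.33 to 2.06, adjusted p = 0.507, edgeR). Leaving out NC replicate 1 moved it to 1.59, which was called (unadjusted p = 0.00630, edgeR), while it was not called without H24 replicate 3 (unadjusted p = 0.0974, edgeR).

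Other genes of PI3K and of the phosphatases that remove its lipid product made up a list of 13 tested genes. In H24/NC, 5 of them (38.5%) were called higher and 0 lower, beside 9.95% and 1.52% of all genes tested, with a median log2 fold change of 0.60. INPP5D, a phosphatase of that lipid known from blood cells, had 1.02 ± 0.193 FPKM in NC and 5.96, 8.05 and 28.6 FPKM in H24 (log2 fold change 3.79, adjusted p = 0.132, edgeR). PIK3R5 and PIK3R6, regulatory subunits of the PI3K coupled to G proteins, had log2 fold changes of 3.82 and 3.60 in H24/NC, with adjusted p-values of 0.132 each (edgeR). The other called genes were the catalytic subunits PIK3CD and PIK3CG, which are best known from leukocytes. The same 5 genes were called without H24 replicate 3, and the median was 0.17.

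Macrophage markers moved with this list. All 10 of them were called higher in H24/NC, and their sum was 26.6 to 37.2 FPKM in NC and 202 to 2104 FPKM in H24. Of 10 T and NK cell markers, 7 were called higher. Several of the 10, such as CD3D (0 to 0.0679 FPKM in NC) and CD4 (0 to 0.0334 FPKM), passed the minimum of 0.1 FPKM only through H24. These could only be called higher. Of the 10 macrophage markers, 7 were called higher in H8/NC and 10 in H24/H8, and 0 lower in either. Their sum was 191, 34.5 and 98.8 FPKM in H8 replicates 1 to 3. The part of macrophages and lymphocytes in the PI3K values was not tested in any comparison. In H8/NC, 2 genes of the list were called higher (INPP5D and PIK3R5) and 1 lower, 15.4% and 7.69% beside 5.11% and 2.27% of all genes. The latter was PIK3IP1, an inhibitor of PI3K, which had 12.6, 20.0 and 10.9 FPKM in NC and 7.44, 4.11 and 6.03 FPKM in H8 (log2 fold change -1.19, adjusted p = 0.201, edgeR). In H24/H8, 6 were called higher (46.2%, beside 7.22% of all genes) and 0 lower, led by PIK3IP1, which had 20.6, 13.6 and 33.3 FPKM in H24 (log2 fold change 1.76, adjusted p = 0.336, edgeR). PIK3IP1 thus did not overlap between groups in either of these comparisons. Leaving out either H24 replicate 3 or H8 replicate 2 left 2 of them called, PIK3IP1 and PIK3R6.

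AKT2, the AKT isoform tied most closely to insulin-driven glucose uptake, is on chromosome 6 (48555842 to 48606167, minus strand). It had 13.5, 18.8 and 23.5 FPKM in NC replicates 1 to 3, 12.5, 11.9 and 13.1 FPKM in H8 and 10.2, 14.0 and 9.81 FPKM in H24. In FPKM all 3 H8 libraries lay below NC, and H24 replicate 2 was the only H24 library above an NC library. In TMM-scaled CPM the H8 libraries (105, 111 and 107) overlapped with NC (105, 154 and 184). The log2 fold change was -0.73 in H24/NC (standard error 0.29, 95% interval -1.41 to -0.05, unadjusted p = 0.0389, adjusted p = 0.335, edgeR) and -0.44 in H8/NC (95% interval -0.94 to 0.06, adjusted p = 0.388, edgeR). It was below 0 in all 15 alternative settings of each of these comparisons, from -0.94 to -0.55 in H24/NC, and was called in none. Without H24 replicate 3 it was -0.64 in H24/NC (unadjusted p = 0.0717, edgeR). In H24/H8 it was -0.31 (95% interval -0.88 to 0.27), and -0.20 without that library.

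In the list of AKT regulators and the mTOR branch, which controls protein synthesis, none of 17 tested genes was called in any of the 3 comparisons, nor without H24 replicate 3, against the shares of all genes given above. The median log2 fold change of this list was -0.18, -0.15 and -0.11 in H24/NC, H8/NC and H24/H8.

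FOXO1, the transcription factor that AKT phosphorylates and keeps inactive, is on chromosome 11 (15320492 to 15410500, minus strand). It had 9.71, 15.8 and 16.2 FPKM in NC replicates 1 to 3, 15.6, 11.4 and 11.0 FPKM in H8 and 17.7, 10.2 and 9.90 FPKM in H24. The 3 groups covered nearly the same range. Log2 fold changes were -0.18 in H24/NC (95% interval -0.94 to 0.58, adjusted p = 0.848, edgeR), 0.00 in H8/NC (-0.60 to 0.59) and -0.20 in H24/H8 (-0.90 to 0.50). Without H24 replicate 3 they were -0.04 in H24/NC and -0.05 in H24/H8.

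Of 17 tested genes in the list of FOXO family members and genes known as FOXO targets, 16 had a log2 fold change below 0 in H24/NC, beside 49.4% of all genes tested, and the median was -0.46, beside 0.01. Without H24 replicate 3 the count was again 16 of 17, with a median of -0.41. In H8/NC it was 10 of 17, beside 48.5% of all genes. In H24/H8 it was 13 of 17, beside 47.0%, and 9 of 17 without H24 replicate 3. In H24/NC, 2 of the 17 were called lower, PCK1 and FBXO32 (11.8%, beside 1.52% of all genes), and 1 was called higher (5.88%, beside 9.95%). FBXO32, a ubiquitin ligase of muscle wasting, had 109, 170 and 207 FPKM in NC and 110, 76.6 and 35.2 FPKM in H24 (log2 fold change -1.17, adjusted p = 0.335, edgeR). PCK1, an enzyme of glucose production that adipocytes also use, was at no more than 0.444 FPKM in either group. With a mean of 0.0234 FPKM in H24 it passed the minimum of 0.1 FPKM only through NC, so it could only be called lower. TRIM63, another muscle ubiquitin ligase, was the gene called higher (log2 fold change 1.88, adjusted p = 0.279, edgeR), from 0.853 ± 0.309 FPKM in NC to 1.49, 1.67 and 6.46 FPKM in H24. PCK1 was the only gene of the list called without H24 replicate 3. Of the 10 adipocyte markers, PCK1 itself among them, 2 were called higher and 2 lower in H24/NC. Their sum was 117 to 194 FPKM in NC and 78.3 to 223 FPKM in H24. ADIPOQ, which defines adipocytes, had 4.44 to 14.6 FPKM in NC and 7.24, 0.0705 and 0.416 FPKM in H24, whereas LPL had 2.91 to 6.49 FPKM in NC and 26.2, 7.13 and 131 FPKM in H24. The part of adipocytes in the PCK1 value was not tested.

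At 8 weeks, 3 of the 17 tested genes of this list (SESN1, FBXO32 and BCL6) were called lower in H8/NC (17.6%, beside 2.27% of all genes). A further 1 was called higher (5.88%, beside 5.11%). SESN1, a stress-induced inhibitor of mTOR signaling, had 23.9, 47.1 and 33.5 FPKM in NC and 8.87, 7.11 and 14.2 FPKM in H8 (log2 fold change -1.68, adjusted p = 0.170, edgeR). FBXO32 had 72.1, 66.1 and 76.5 FPKM in H8, below all NC libraries (log2 fold change -1.05, adjusted p = 0.200, edgeR). PDK4, which slows the use of glucose in mitochondria, moved the other way, from 36.2, 27.4 and 41.9 FPKM in NC to 59.7, 79.8 and 52.4 FPKM in H8 (log2 fold change 1.02, adjusted p = 0.201, edgeR). Without H8 replicate 2, SESN1 and FBXO32 were the called genes. In H24/H8, PCK1 and PDK4 were called lower (11.8%, beside 3.05% of all genes) and 0 higher, and PDK4 had 50.3, 17.3 and 7.97 FPKM in H24. Both were also called lower without H24 replicate 3, when SESN1 was called higher. PCK1 was the only gene of the list called without H8 replicate 2. It passed the minimum of 0.1 FPKM only through H8 (0.202, 0.248 and 1.11 FPKM), so it could only be called lower.

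SLC2A4 encodes GLUT4, the glucose transporter that insulin moves to the surface of muscle and fat cells, and is on chromosome 12 (52628450 to 52634974, plus strand). It had 20.4, 20.7 and 32.4 FPKM in NC replicates 1 to 3, 17.5, 4.70 and 18.4 FPKM in H8 and 20.1, 22.1 and 3.14 FPKM in H24. In each of the fed groups 2 libraries lay near or just below NC and 1 lay far below, which were H8 replicate 2 and H24 replicate 3. The log2 fold change was -0.72 in H24/NC (95% interval -2.24 to 0.80, adjusted p = 0.665, edgeR) and -0.24 without H24 replicate 3. In H8/NC it was -0.75 (95% interval -1.80 to 0.29, adjusted p = 0.481, edgeR) and -0.38 without H8 replicate 2. In H24/H8 it was 0.03, with an interval of -1.73 to 1.80 that leaves a wide range of differences possible, and 0.51 without H24 replicate 3.

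The libraries with little SLC2A4 were also the lowest for INSR and IRS1. H24 replicate 3 was the lowest and H8 replicate 2 the second lowest library for all 3 genes. Relative to the NC mean, on the log2 scale of FPKM, SLC2A4 stood at -2.96, INSR at -1.58 and IRS1 at -1.36 in H24 replicate 3, and at -2.38, -0.57 and -1.30 in H8 replicate 2. The summed smooth muscle markers stood at -2.86 in H24 replicate 3 and at -0.29 in H8 replicate 2, where they came to 10836 FPKM. Macrophage markers stood at 6.04 in H24 replicate 3 and at 0.11 in H8 replicate 2, and fibroblast markers at -0.09 and 1.12. Endothelial markers stood at -0.86 and -0.46, beside -0.46 in NC replicate 1. In H24 replicate 3 this list was mixed, with ESAM (17.5 FPKM) at its lowest and KDR (4.07 FPKM) at its highest of the 9 libraries. INSR was much nearer to the NC mean in H8 replicate 2 than in H24 replicate 3, as were smooth muscle markers, whereas SLC2A4 and IRS1 were low in both. The part of these cell types in the members' values was not tested.

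Fat and skeletal muscle are the tissues best known for SLC2A4. The adipocyte gene ADIPOQ was at 0.0954 and 0.0789 FPKM in H8 replicates 1 and 3, where SLC2A4 had 17.5 and 18.4 FPKM, and at 0.0705 FPKM in H24 replicate 2, where SLC2A4 had 22.1 FPKM. It was also low in the libraries with the least SLC2A4, at 0.106 FPKM in H8 replicate 2 (SLC2A4 at 4.70 FPKM) and 0.416 FPKM in H24 replicate 3 (3.14 FPKM). ADIPOQ was higher in NC replicates 1 to 3 (4.44, 14.6 and 6.83 FPKM) and in H24 replicate 1 (7.24 FPKM). SLC2A4 had 20.4, 20.7 and 32.4 FPKM in these NC libraries and 20.1 FPKM in H24 replicate 1. Of 9 adipocyte markers tested in H8/NC, 4 were called lower and 0 higher, beside 2.27% and 5.11% of all genes. PLIN1, at no more than 0.0823 FPKM in H8, passed the minimum of 0.1 FPKM only through NC and could only be called lower. The part of adipocytes in the SLC2A4 values was not tested. The summed adipocyte list, which includes FABP4 and LPL that other cells make too, ran from 72.5 to 223 FPKM over the 9 libraries. Skeletal muscle markers summed to at most 2.88 FPKM in any library, and ACTA1, which defines skeletal muscle, to at most 0.130 FPKM.

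**Figure D4:**
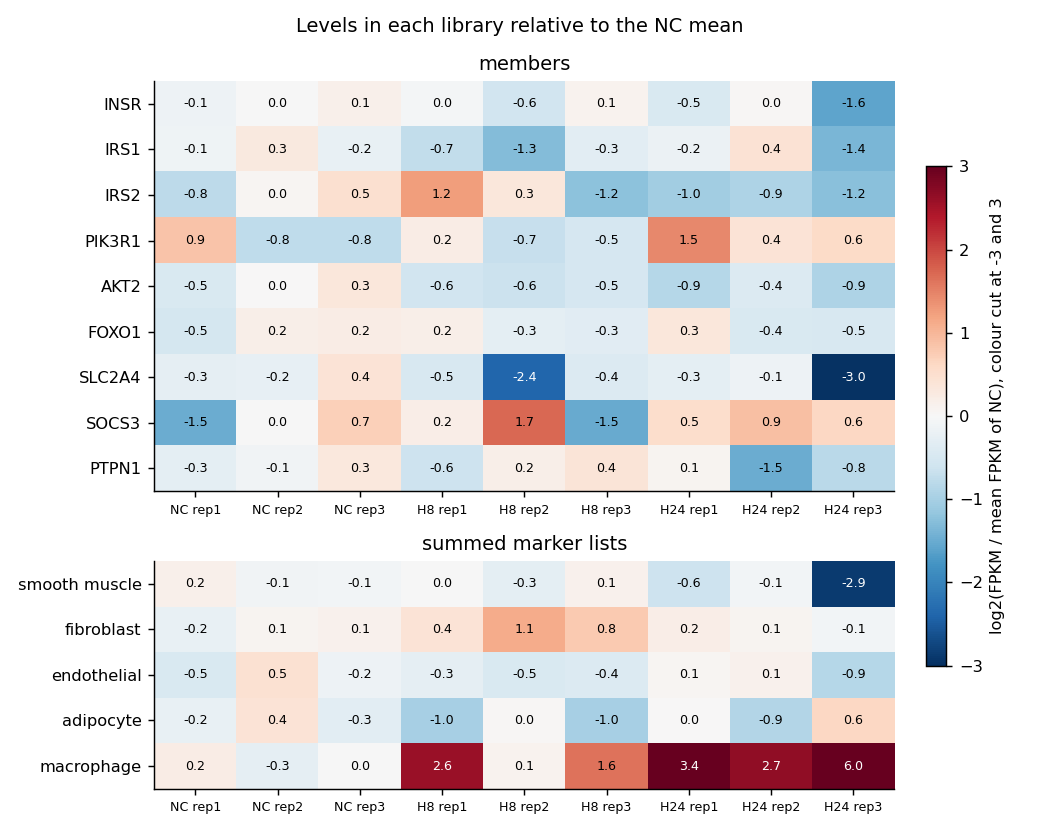
Log2 of FPKM over the NC mean for the 9 members at 1 FPKM or more (upper panel) and for the summed markers of 5 cell types (lower panel), with 1 column for each library. Red is above and blue below the NC mean, and colours are cut at -3 and 3. SLC2A4, INSR and IRS1 are lowest in H24 replicate 3 and H8 replicate 2, smooth muscle markers are low in H24 replicate 3 (-2.86), and macrophage markers are highest there (6.04).

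Among 16 tested genes of the metabolic outputs, 2 were called higher and 1 lower in H24/NC (12.5% and 6.25%, beside 9.95% and 1.52% of all genes), with a median log2 fold change of 0.28 that was -0.01 without H24 replicate 3. SLC2A5, a fructose transporter, had 0.136 ± 0.116 FPKM in NC and 4.20, 1.98 and 19.7 FPKM in H24 (log2 fold change 5.95, adjusted p = 0.132, edgeR). HK2, the hexokinase of insulin-responsive tissues, had 0.851 to 2.01 FPKM in NC and 3.23, 2.27 and 16.3 FPKM in H24 (log2 fold change 2.48, adjusted p = 0.257, edgeR). PYGB, a glycogen phosphorylase, was called lower, from 35.1, 23.1 and 14.9 FPKM in NC to 12.7, 12.7 and 4.97 FPKM in H24 (log2 fold change -1.29, adjusted p = 0.286, edgeR). SLC2A5 and HK2 were also called without H24 replicate 3, and PYGB was not. Macrophage markers, which summed to 327, 202 and 2104 FPKM in H24 replicates 1 to 3, were highest in the same library as SLC2A5 and HK2, and their part was not tested. In H8/NC, SLC2A5 was the only gene of the list called, higher (6.25%, beside 5.11% of all genes). In H24/H8 PYGB was the only one, lower (6.25%, beside 3.05%), also without H24 replicate 3 or H8 replicate 2.

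PPARGC1A encodes PGC-1 alpha, a coactivator that drives mitochondrial genes in muscle and brown fat, and is on chromosome 8 (17841844 to 17961834, minus strand). It had 11, 8 and 0 counts in NC replicates 1 to 3, 0, 5 and 0 counts in H8 and 0, 0 and 10 counts in H24. These correspond to at most 0.0236 FPKM. It exceeded 3 counts, the smallest signal taken here, in 4 of the 9 libraries, and a difference between groups was not detectable at this depth. The deposited model spans 119991 bases, against 686110 for the RefSeq gene.

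Of 14 tested partners and relatives of PGC-1 alpha, 1 was called lower and 1 higher in H24/NC (7.14% each, beside 1.52% and 9.95% of all genes). PPARA, a receptor for fatty acids, had 7.04, 7.23 and 7.21 FPKM in NC and 3.36, 2.94 and 1.83 FPKM in H24. The groups did not overlap (SD 0.104 FPKM in NC and 0.790 FPKM in H24), and the log2 fold change was -1.43 (adjusted p = 0.136, edgeR). PPARG, a lipid-sensing receptor of fat cells and macrophages, had 0.948 to 1.21 FPKM in NC and 3.96, 1.73 and 24.0 FPKM in H24 (log2 fold change 3.12, adjusted p = 0.227, edgeR). Both were called without H24 replicate 3 as well. In H8/NC none of the 14 was called, and in H24/H8 PPARG was the only one, called higher (7.14%, beside 7.22% of all genes). None was called in H24/H8 once H24 replicate 3 was left out.

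SOCS3, an inhibitor induced by cytokines that binds the insulin receptor and the IL6 receptor subunit, is on chromosome 12 (3643929 to 3647009, plus strand). It had 8.59, 24.1 and 40.1 FPKM in NC replicates 1 to 3, 27.9, 80.3 and 8.45 FPKM in H8 and 34.9, 45.3 and 37.5 FPKM in H24. The H24 pigs were alike, while the NC and H8 pigs each spread over several fold, and all 3 groups overlapped. In edgeR the log2 fold change was 0.67 in H24/NC (95% interval -0.53 to 1.87, adjusted p = 0.604, edgeR). It moved between 0.26 without NC replicate 1 and 1.21 without NC replicate 3, and was 0.70 without H24 replicate 3. In H8/NC it was 0.88 (95% interval -1.09 to 2.86, adjusted p = 0.668, edgeR) and turned to -0.34 without H8 replicate 2. In H24/H8 it was -0.24 (-1.98 to 1.51) and turned to 0.98 without that library, while leaving out H24 replicate 3 gave -0.18.

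PTPN1 encodes PTP1B, the phosphatase that removes phosphate from the insulin receptor, and is on chromosome 17 (52017079 to 52087093, plus strand). It had 6.68, 7.50 and 10.2 FPKM in NC replicates 1 to 3, 5.28, 9.25 and 10.7 FPKM in H8 and 8.56, 2.90 and 4.62 FPKM in H24. H24 replicates 2 and 3 were the lowest libraries of the series, while H24 replicate 1 lay within the NC range. Its log2 fold change was -0.63 in H24/NC (95% interval -1.56 to 0.29, adjusted p = 0.529, edgeR), 0.19 in H8/NC (-0.49 to 0.88) and -0.85 in H24/H8 (-1.88 to 0.18). Leaving out H24 replicate 3 gave -0.54 in H24/NC and -0.76 in H24/H8. Without H24 replicate 1 it was -1.11 in H24/NC and -1.34 in H24/H8, both called. Leaving out H8 replicate 1 also gave a call in H24/H8 (-1.11).

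The list of other negative regulators, including kinases that phosphorylate the adaptors, held 5 genes called higher (26.3%, beside 9.95% of all genes) and 0 lower among 19 tested in H24/NC. RPS6KA1, a kinase below ERK, had 1.07 to 1.52 FPKM in NC and 7.28 to 46.3 FPKM in H24 (log2 fold change 4.05, adjusted p = 0.132, edgeR). TNF, a cytokine that impairs insulin signaling, had 0.0400 to 0.0596 FPKM in NC and 0.320, 0.146 and 0.370 FPKM in H24 (log2 fold change 2.49, adjusted p = 0.182, edgeR). Its mean of 0.0470 FPKM in NC is under the minimum of 0.1 FPKM, so it was tested only through the fed groups and could only be called higher. The same holds for PRKCQ in H24/H8. PRKCD, a protein kinase C, was the third, with a log2 fold change of 1.11. With H24 replicate 3 left out, 3 genes were called higher (RPS6KA1, TNF and PTPRF). In H8/NC, 2 of 19 genes were called higher, RPS6KA1 and TNF (10.5%, beside 5.11% of all genes). Without H8 replicate 2, TNF fell under the minimum of 0.1 FPKM and was not tested. In H24/H8, 4 of 20 were called higher (20.0%, beside 7.22%), led by PRKCZ (log2 fold change 1.44, adjusted p = 0.341, edgeR). PRKCZ was the only one of them called without H24 replicate 3, when PRKCQ fell under the minimum and was not tested. The macrophage markers given above moved with this list too, and their part was not tested.

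A further list held cytokines of the IL6 family and their STAT3 pathway, which induces SOCS3. Of its genes, 1 of 15 tested was called in H24/NC (6.67%, beside 9.95% of all genes) and 1 of 16 in H8/NC (6.25%, beside 5.11%). Both times it was OSM, called higher. OSM, a cytokine of leukocytes, had 2.22, 0.905 and 1.93 FPKM in NC, 10.5, 3.19 and 3.25 FPKM in H8 and 5.41, 8.29 and 7.29 FPKM in H24. All fed pigs lay above all NC pigs. The log2 fold change was 2.05 in H24/NC and 1.87 in H8/NC (adjusted p = 0.132 and 0.233, edgeR), and OSM was also called without H24 replicate 3 or H8 replicate 2. In H24/H8, 3 of 16 genes were called lower (18.8%, beside 3.05% of all genes). CEBPB and CEBPD, transcription factors of the acute phase, had log2 fold changes of -1.04 and -1.12, and IL11 was listed at 0 in all H24 libraries and so could only be called lower. None of the list was called lower without H24 replicate 3, nor without H8 replicate 2. In the latter case IL11 fell under the minimum of 0.1 FPKM and was not tested. JAK2 was called higher without H24 replicate 3, and BCL3 without H8 replicate 2.

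Insulin-like growth factors signal through a sister receptor of INSR and the same adaptors. Of 8 tested genes of this family and its binding proteins, IGFBP5 and IGF1 were called higher in H24/NC (25.0%, beside 9.95% of all genes) and none lower. IGFBP5 had 15.9, 11.8 and 7.65 FPKM in NC and 16.6, 30.5 and 29.9 FPKM in H24 (log2 fold change 1.11, adjusted p = 0.266, edgeR). Neither was called without H24 replicate 3, when IGFBP3 and IGFBP6 were called instead. In H24/H8, IGFBP2 was called higher (log2 fold change 1.45, 12.5% of the list beside 7.22% of all genes), and not without H8 replicate 2. Without H24 replicate 3, IGFBP2 and IGFBP3 were called higher. Among 14 other receptor and adaptor genes none was called in H24/NC, also without H24 replicate 3. GAB2, a docking protein, was called higher in H8/NC (log2 fold change 1.02, 7.14% of the list beside 5.11% of all genes). Its relative GAB1 was called lower in H24/H8 (log2 fold change -1.01, 7.14% beside 3.05%). Neither call held without H8 replicate 2. Without H24 replicate 3, SH2B2 was the gene called in H24/H8, higher.

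Over all 9 lists, 17 of 133 tested genes were called higher and 4 lower in H24/NC, 8 and 4 of 134 in H8/NC, and 12 and 7 of 135 in H24/H8. The shares called higher were 12.8%, 5.97% and 8.89%, beside 9.95%, 5.11% and 7.22% of all genes, and those called lower 3.01%, 2.99% and 5.19%, beside 1.52%, 2.27% and 3.05%. Without H24 replicate 3, 16 genes were called in H24/NC and 11 in H24/H8, and without H8 replicate 2, 9 in H8/NC and 7 in H24/H8. None passed the adjusted threshold in edgeR. The median log2 fold changes of these genes were -0.04, 0.08 and 0.05.

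**Figure D5:**
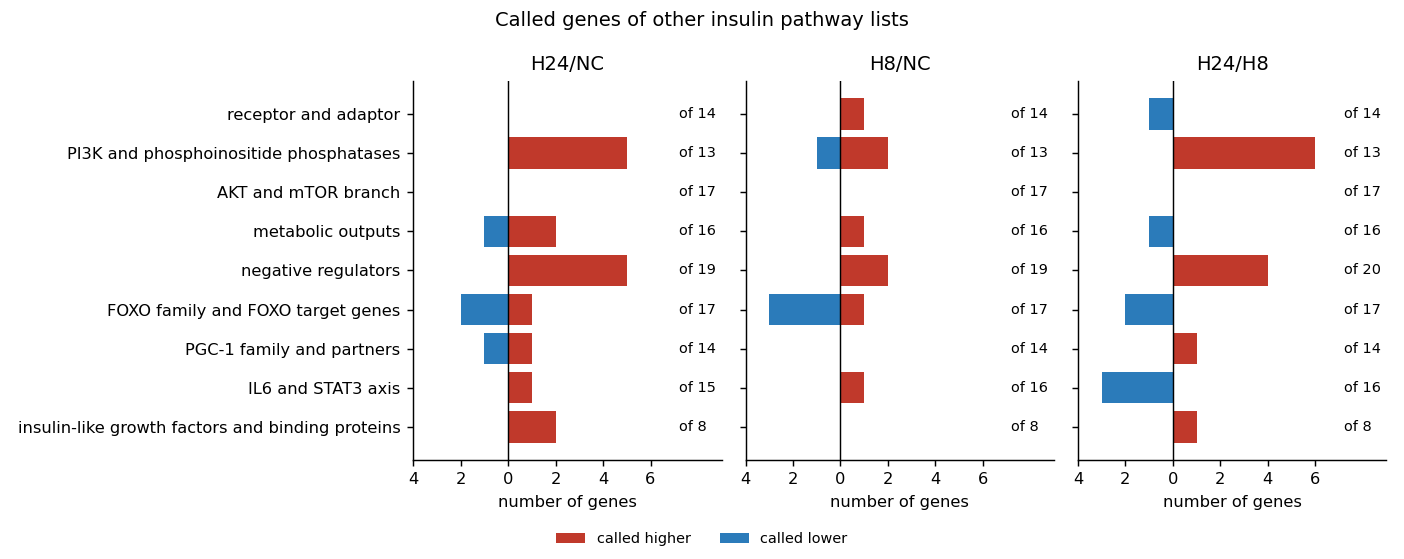
Number of genes called higher (red, to the right) and lower (blue, to the left) in each list of other insulin pathway genes, with the number tested at the right of each panel. In H24/NC the lists of PI3K genes and of negative regulators each hold 5 genes called higher, and the AKT and mTOR list holds none in any comparison.

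Genes whose pattern over the 9 libraries was most like a member's were sought among 9563 named genes with a mean of at least 1 FPKM, by Pearson's r of log2 CPM. ADAMTSL1 (r = 0.99) and GLG1 (0.98) were nearest to INSR, NRBP2 and PLEKHH3 (0.96 each) to IRS1, and RRN3 (0.93) was close to IRS2. HOXA5 (0.98) and FOXJ3 (0.97) were nearest to SLC2A4, ACKR3 (0.98) and PIM3 (0.93) to SOCS3, and BECN1 (0.96) and POLR2K (0.95) to PTPN1. For AKT2 they were ZNF213 (0.97) and SETD3 (0.93), for PIK3R1 TRIL and ALDH1A2 (0.91 each), and for FOXO1 SECISBP2L (0.92) and PTPN13 (0.88). These are the highest values of a large search over few libraries that share their groups and scaling, and they are given as a description.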

How the data were processed

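RNA-seq was run on poly(A) RNA of 9 abdominal aortas, in 3 groups of 3 named by the sample titles. The authors mapped paired-end reads with HISAT 2.0 to Sscrofa11.1 and assembled them with StringTie 1.3.0. The submitters' processing notes also name Bowtie 0.12.2 and a mouse build. The coordinates match those of the pig genes. The deposited table gives FPKM from StringTie and an expected count per gene, a whole number not scaled for depth, whose derivation and use of strand are not stated.

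The counts were tested with edgeR 4.0.16 under R 4.3.3 (TMM, quasi-likelihood test, the 6 libraries of each comparison, genes with a mean of at least 0.1 FPKM), with Benjamini-Hochberg adjustment over all tested genes. Log2 fold changes are on TMM-scaled counts and so differ from FPKM ratios. The test was first tried on simulated data with known changes. At the depths found, 3 counts equal 0.0396 to 0.068 CPM, which covers counting error only. limma 3.58.1 and DESeq2 1.42.0 served as alternatives, besides other factors, filters, fits and left-out libraries. Named genes were all 10 members, up to 3 called genes of a list by p-value, the 2 genes most like each member (1 of them is not reported here), and markers. Further called genes and library patterns were named after their values were seen. Of 150 other pathway genes, 141 were found by name. The members and lists were chosen with earlier results of these data known. No source ties replicate numbers to shared pigs, and p-values measure the spread between pigs.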

Additional observations from a re-analysis of the deposited data

How the results depend on the processing

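No member passed the adjusted threshold under any setting. By the thresholds of the study, the number of members called in H24/NC was 0 with all 9 libraries in one fit and with limma on log2(FPKM + 0.1) or log2(FPKM + 1), and 0 to 2 with a library left out. In H8/NC it was 0 to 1 with a library left out. In H24/H8 it was 2 with library size only, 1 to 2 with a library left out, and 0 without both H24 replicate 3 and H8 replicate 2, an alternative chosen after seeing the data. Replicate numbers did not pair the pigs (correlations of deviations from -0.09 to 0.11, and 2 or 3 of 6 libraries closest to their own number). With a replicate block 2 members were called in H24/NC, PIK3R1 being added.

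Other pathway genes called numbered 21 in H24/NC, 12 in H8/NC and 19 in H24/H8 in the main fit, and 24, 14 and 22 with DESeq2. With limma on log2(FPKM + 1) they numbered 13, 6 and 9. With a library left out they ran from 16 to 30 in H24/NC, 9 to 17 in H8/NC and 7 to 19 in H24/H8. Without the pair named above there were 10 in H24/H8.

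Of 414 alternative values of the members' fold changes, 365 kept direction and call, 10 lost a call, 12 gained it and 27 changed sign. With a library left out, values with a change of sign ran from -0.70 to 0.14 for IRS1 in H24/NC and -0.13 to 0.74 in H24/H8. In H8/NC they ran from -0.12 to 0.09 for INSR, -0.04 to 1.01 for IRS2, -0.44 to 0.61 for PIK3R1, -0.22 to 0.12 for FOXO1 and -0.34 to 1.43 for SOCS3. In H24/H8 they ran from -0.42 to 0.51 for SLC2A4 and -0.73 to 0.98 for SOCS3. In H8/NC the replicate block gave 0.04 for PIK3R1 and 0.02 for FOXO1. In H24/H8 it gave -0.17 for SLC2A4 and 0.34 for SOCS3. Library size only gave 0.01 for FOXO1 and 0.03 for SOCS3 there, limma gave -0.04 and -0.01 for SLC2A4 and 0.54 and 0.51 for SOCS3 with pseudocounts of 0.1 and 1, and leaving out the pair gave 1.04 for SOCS3. The cause was not tested. The planned ratio of AKT2 to AKT1 was not run.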

Other observations

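The NC pigs differed among themselves in a shared way over the insulin signaling genes, a pattern noticed in the values. For 7 of the 9 members at 1 FPKM or more (INSR, IRS2, AKT2, FOXO1, SLC2A4, SOCS3 and PTPN1), NC replicate 1 was the lowest and NC replicate 3 the highest of the 3 control libraries. The same held for 17.7% of the 11239 genes at this level. IRS1 and PIK3R1 were the exceptions, with PIK3R1 highest in NC replicate 1 (23.1 FPKM). Among the 7, SOCS3 ran from 8.59 to 40.1 FPKM and INSR from 6.91 to 8.41 FPKM.

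Markers of further cell types were measured beside the members. Endothelial markers summed to 127 to 240 FPKM in NC, 127 to 146 FPKM in H8 and 96.2 to 190 FPKM in H24, and 0 of 9 were called in any comparison by edgeR. B and plasma cell markers summed to 2.37 to 15.9 FPKM, neutrophil markers to 0.964 to 60.9 FPKM, erythrocyte markers to 19.6 to 253 FPKM and nerve markers to 22.1 to 62.5 FPKM over the 9 libraries. Of the cardiac muscle markers, TNNT2, NPPA and NPPB were at 0 in every library, and RYR2, the other one found, was at 1.43 to 6.70 FPKM.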
